A study of Homo sapiens with 31 samples.

Results

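Actin and 9 further genes, most of them for proteins that act on actin, were followed in NALM-6, a B-cell precursor acute lymphoblastic leukemia line, after knockdown (KD) of XIAP, an inhibitor of caspases. The members were found by gene symbol in the table of UMI counts, and all 10 were there, of 30667 gene identifiers in all: the cytoplasmic actins ACTB and ACTG1, the monomer-binding proteins PFN1, TMSB4X and TMSB10, the severing protein CFL1, the Arp2/3 subunits ARPC2 and ARPC3, the capping subunit CAPZB, and the coronin CORO1A. They were chosen by a readout of these samples, the higher ACTB level with SFFV/sh-XIAP at days 10 and 13, so that this comparison is given as a description and without a test. A UMI (unique molecular identifier) marks 1 captured RNA molecule, and levels are the UMIs of a gene over all UMIs of its sample, scaled to a total of 1000000 (CPM), with mean ± SD over samples.

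The 31 samples came from cells carrying 1 of 4 lentiviral constructs, taken 4, 10 or 13 days after transduction: EF1a/sh-CTRL with 3, 3 and 3 samples at these days, EF1a/sh-XIAP with 2, 2 and 3, SFFV/sh-CTRL with 3, 2 and 2, and SFFV/sh-XIAP with 2, 3 and 3. In the terms of the study the weaker EF1a promoter gives a moderate and the stronger viral SFFV promoter a strong XIAP KD, and both sh-XIAP constructs carry the same hairpin. Every sample, controls included, was from transduced cells with a hairpin, so no untransduced cells stood beside them. The labels say that the cells were kept in vitro, whereas the text on the design of the series has them taken from mouse bone marrow; no mouse gene identifier was in the table (0 of 30667). Nothing says that replicates of a group came from separate transductions, so p-values measure the spread between these samples, which may be technical.

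Total UMIs per sample ran from 312852 to 1153668, with a median of 603822, and the totals of groups differed: with SFFV/sh-CTRL the day 10 samples had 444200 and 520334 and the day 13 samples 351081 and 484714, while with SFFV/sh-XIAP they had 312852 to 1148669 at day 10 and 630726 to 1063954 at day 13. All 10 B-lineage markers were detected, at a summed 3628 to 4191 CPM, against 0 to 6.39 CPM for T-cell, 0 to 25.6 for myeloid, 0 to 5.29 for erythroid and 6.22 to 22.9 for stromal and smooth muscle markers. In each sample XIAP itself had between 2 and 14 UMIs; its median was 8.15 CPM with SFFV/sh-XIAP and 10.5 CPM with SFFV/sh-CTRL at days 10 and 13, so these counts check the labels little. In such bulk samples, fewer cells of a kind and less RNA per cell cannot be told apart.

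Actin is the subunit of the microfilaments that give a cell its shape, carry its movement and divide it at the end of mitosis. Filaments grow from monomers that profilin delivers and thymosins hold back, branch at the Arp2/3 complex, are stopped at their growing end by capping protein, and are severed by cofilin; coronin, prominent in lymphocytes, works with the last steps. In B-lineage cells this cortex shapes migration and receptor clustering, and ACTB is widely used as a reference gene that is taken as stable.

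ACTB (ENSG00000075624; GENCODE 29 on GRCh38, chr7:5527147-5563784, minus strand) and ACTG1 (ENSG00000184009; chr17:81509971-81523847, minus strand) are near copies in their coding parts, and their first bases are shown to give the scale of that likeness, which decides whether a short read can tell one from the other. Capitals mark the positions at which the pair differs, counted from the A of the start codon.

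ACTB bases 1 to 60: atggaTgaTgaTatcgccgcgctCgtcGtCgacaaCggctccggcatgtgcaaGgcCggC

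ACTG1 bases 1 to 60: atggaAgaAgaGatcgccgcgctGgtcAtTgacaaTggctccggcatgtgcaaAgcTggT

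Over the whole coding sequence of 1128 bases, from GENCODE 29, they were identical at 91.2% of positions and differed at 99, of which 10 lie in the stretch shown. The thymosin pair is shown whole, with the stop codon, because both genes are counted here and both have listed pseudogenes elsewhere in the genome. TMSB4X (ENSG00000205542; chrX:12975108-12977227, plus strand) and TMSB10 (ENSG00000034510; chr2:84905625-84906675, plus strand) were identical at 72.6% of 135 positions and differed at 37.

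TMSB4X bases 1 to 135: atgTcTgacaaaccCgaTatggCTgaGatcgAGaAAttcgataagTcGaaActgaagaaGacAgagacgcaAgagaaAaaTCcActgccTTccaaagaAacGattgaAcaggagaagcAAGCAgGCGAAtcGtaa

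TMSB10 bases 1 to 135: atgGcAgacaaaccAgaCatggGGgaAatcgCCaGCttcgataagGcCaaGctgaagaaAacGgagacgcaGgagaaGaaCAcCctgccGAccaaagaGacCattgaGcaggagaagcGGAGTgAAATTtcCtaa

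Prime-seq reads the 3′ end of a transcript, so likeness there matters more for the counts than likeness of the coding parts. Windows of 50 bases were taken from the last 500 bases of the members' transcripts, and those found unaltered in a transcript of another gene were counted. None was shared for CFL1, ARPC2 and CAPZB, whereas the share was 5.36% for ACTB, 3.51% for ACTG1 and 2.24% for TMSB10, and 17.8% for CORO1A, 23.9% for ARPC3, 24.4% for PFN1 and 27.2% for TMSB4X. The table itself also lists pseudogenes by the members' names. Of the UMIs on gene and pseudogenes together, 33.6% of those of ARPC3 and 32.6% of those of TMSB4X were on pseudogenes, the most on 1 of them with TMSB4XP4 at 9749 UMIs over all samples against 23592 on TMSB4X. This share was 6.42% for TMSB10, 4.05% for PFN1, 1.84% for ACTG1 and under that for ACTB (0.849%) and CFL1 (0.846%), and no pseudogene of ARPC2, CAPZB or CORO1A was listed. These shares take in pseudogenes by name only. The other genes with the most shared windows for CORO1A (AC133555.4) and ARPC3 (AP002784.2) have other names, so their UMIs are left out. The levels of TMSB4X and ARPC3 are therefore uncertain by the share of reads the counting may have split. Those of PFN1 and CORO1A, with 24.4% and 17.8% of windows shared, may be uncertain too.

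**Figure D1:**
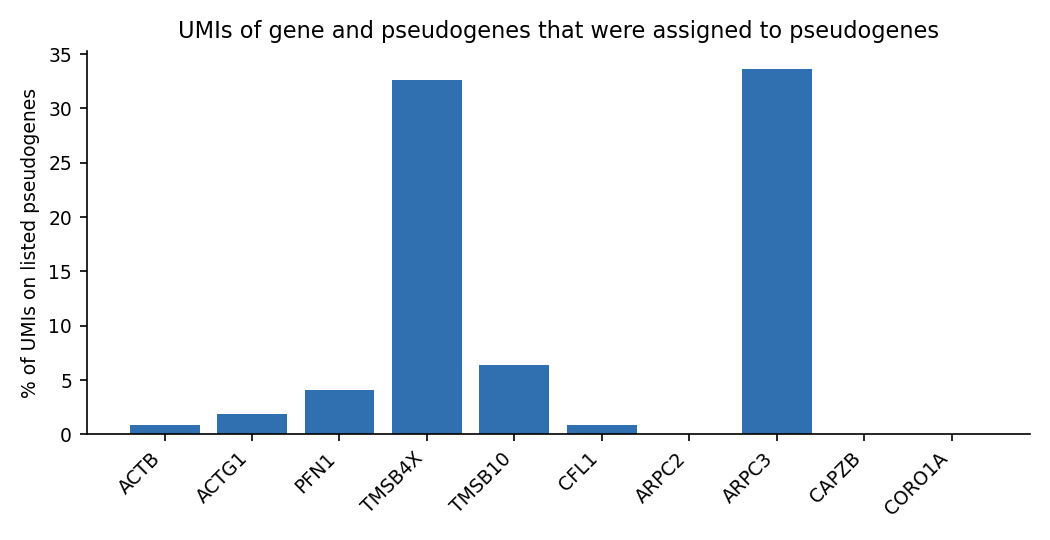
Bars give, for each member (x axis), the percent of its UMIs and those of its listed pseudogenes, summed over 31 samples, that were on the pseudogenes (y axis). The bars of ARPC3 (33.6%) and TMSB4X (32.6%) stand far above the other 8, which reach at most 6.42%.

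All members were well detected: their sum was 0.654% to 0.739% of a sample's UMIs (median 0.700%). Over the 31 samples ACTG1 ranged from 1488 to 1838 CPM (median 1693), ACTB from 1270.4 to 1591 (median 1408) and TMSB4X from 986 to 1286 (median 1157). PFN1, which feeds monomers to growing ends, ranged from 625.1 to 837 CPM (median 723), CFL1 from 563 to 759 (median 650.0) and TMSB10 from 553 to 709.6 (median 629.7). Lower were ARPC2 at 252 to 369 CPM (median 305), CAPZB at 117 to 249 (median 159.9), CORO1A at 126 to 183 (median 151) and ARPC3 at 76.7 to 134 (median 113), the last with as few as 24 UMIs in a sample. These are counts of 3′ ends and were not divided by transcript length.

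The members differed in how far replicates of 1 group spread. Chance in counting alone gives a chi-square near 1 per degree of freedom within groups (19 degrees), and TMSB4X (0.857), ARPC3 (0.824) and PFN1 (1.11) were near it. CAPZB, the beta subunit of capping protein, spread most with 2.91, followed by ACTG1 with 2.28, ARPC2 with 1.80, ACTB and CFL1 with 1.52 each, TMSB10 with 1.49 and CORO1A with 1.34. In percent of the mean, the SD within groups was 3.22% for TMSB4X, 4.16% for ACTB, 4.79% for ACTG1 and 5.23% for PFN1, and 17.7% for CAPZB. When the 12 groups of construct and day were put in order of their means, neighbours overlapped in all 11 places for 8 members. CAPZB and TMSB4X each had 1 place without overlap. For CAPZB it lay between SFFV/sh-XIAP at day 4 and the lowest group, EF1a/sh-CTRL at day 10 (129 ± 0.312, n = 3). For TMSB4X it lay between EF1a/sh-XIAP at day 13 (1092 ± 21.6, n = 3) and EF1a/sh-CTRL at day 10 (1026 ± 37.1, n = 3). The SD of 0.312 CPM is far below the counting error of CAPZB, which was 10.1% in the median sample. How many of all genes have such gaps was not counted, so the gaps are not read as a result.

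ACTB had its highest mean in SFFV/sh-XIAP at days 10 and 13, the readout by which the members were selected. With this construct the samples had 1465.5, 1409.6 and 1591 CPM at day 10 and 1481, 1499 and 1416 at day 13. With SFFV/sh-CTRL they had 1342 and 1334 CPM at day 10 and 1270.4 and 1355 at day 13. All 6 SFFV/sh-XIAP samples were above all 4 of SFFV/sh-CTRL, as chosen; over all genes, 1.21% had groups that did not overlap in this comparison. The log2 fold change of ACTB in the fit was 0.17 (SE 0.034), a level 12.4% higher, with a ratio of mean CPM of 1.11 at day 10 and 1.12 at day 13. It was 0.102 (SE 0.027) with all 31 samples in the fit, those of day 4 included, and 0.23 (SE 0.037) with no filter on low counts. The comparison called 0.0792% of 17683 genes tested at an adjusted p of at most 0.25, and 1 of 10 members, ACTB, which restates the choice.

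The other actin did not stand apart in the same samples. ACTG1 had 1673, 1509 and 1687 CPM with SFFV/sh-XIAP at day 10 and 1694, 1657 and 1671 at day 13, against 1792 and 1666, then 1663 and 1564, with SFFV/sh-CTRL. These ranges overlap, and its log2 fold change was -0.0078 (SE 0.034). ACTB made up 45.9% to 48.5% of the UMIs of both actins with SFFV/sh-XIAP (mean 47.3% ± 1.04, n = 6) and 42.8% to 46.4% with SFFV/sh-CTRL (mean 44.3% ± 1.61, n = 4).

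**Figure D2:**
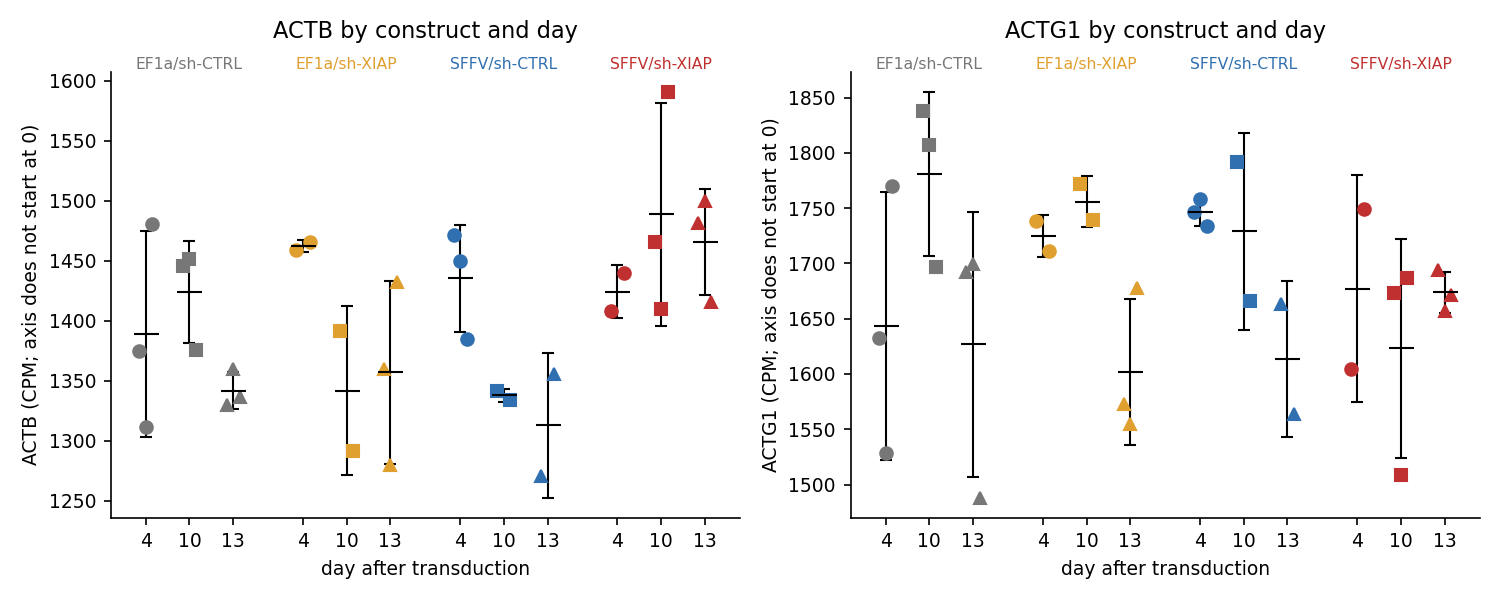
Levels of ACTB (left) and ACTG1 (right) in CPM (y axes, not starting at 0) by construct and day after transduction (x axis); each point is 1 sample, and bars give mean and SD. For ACTB the SFFV/sh-XIAP points of days 10 and 13 lie between 1409.6 and 1591, above the SFFV/sh-CTRL points of those days, while the ACTG1 points of the same groups overlap.

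Among the monomer-binding members, PFN1 came next to ACTB in this comparison, with a log2 fold change of 0.13 (SE 0.050). Its samples had 776.5, 837 and 791 CPM at day 10 and 744, 783 and 788 at day 13 with SFFV/sh-XIAP, and 716, 713, 780.4 and 625.1 with SFFV/sh-CTRL over both days, so that 1 control sample lay within the range of the KD samples. The thymosins, which keep monomers out of filaments, had log2 fold changes of 0.025 (TMSB4X, SE 0.044) and -0.061 (TMSB10, SE 0.056). CFL1, which severs and disassembles filaments, averaged 677 ± 24.2 CPM (n = 6) against 635 ± 63.8 (n = 4), ARPC2 299 ± 14.3 against 310.2 ± 43.5 and ARPC3 116 ± 19.8 against 115 ± 4.46. CAPZB averaged 161 ± 28.2 CPM against 173 ± 35.0, and CORO1A 154 ± 12.1 against 149 ± 15.04. The days differed for CAPZB, with a ratio of mean CPM of 1.17 at day 10 and 0.757 at day 13. Over the 10 members, 6 log2 fold changes were positive and 4 negative, from -0.16 (CAPZB) to 0.17, with a median of 0.027 beside -0.018 over all genes tested.

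**Figure D3:**
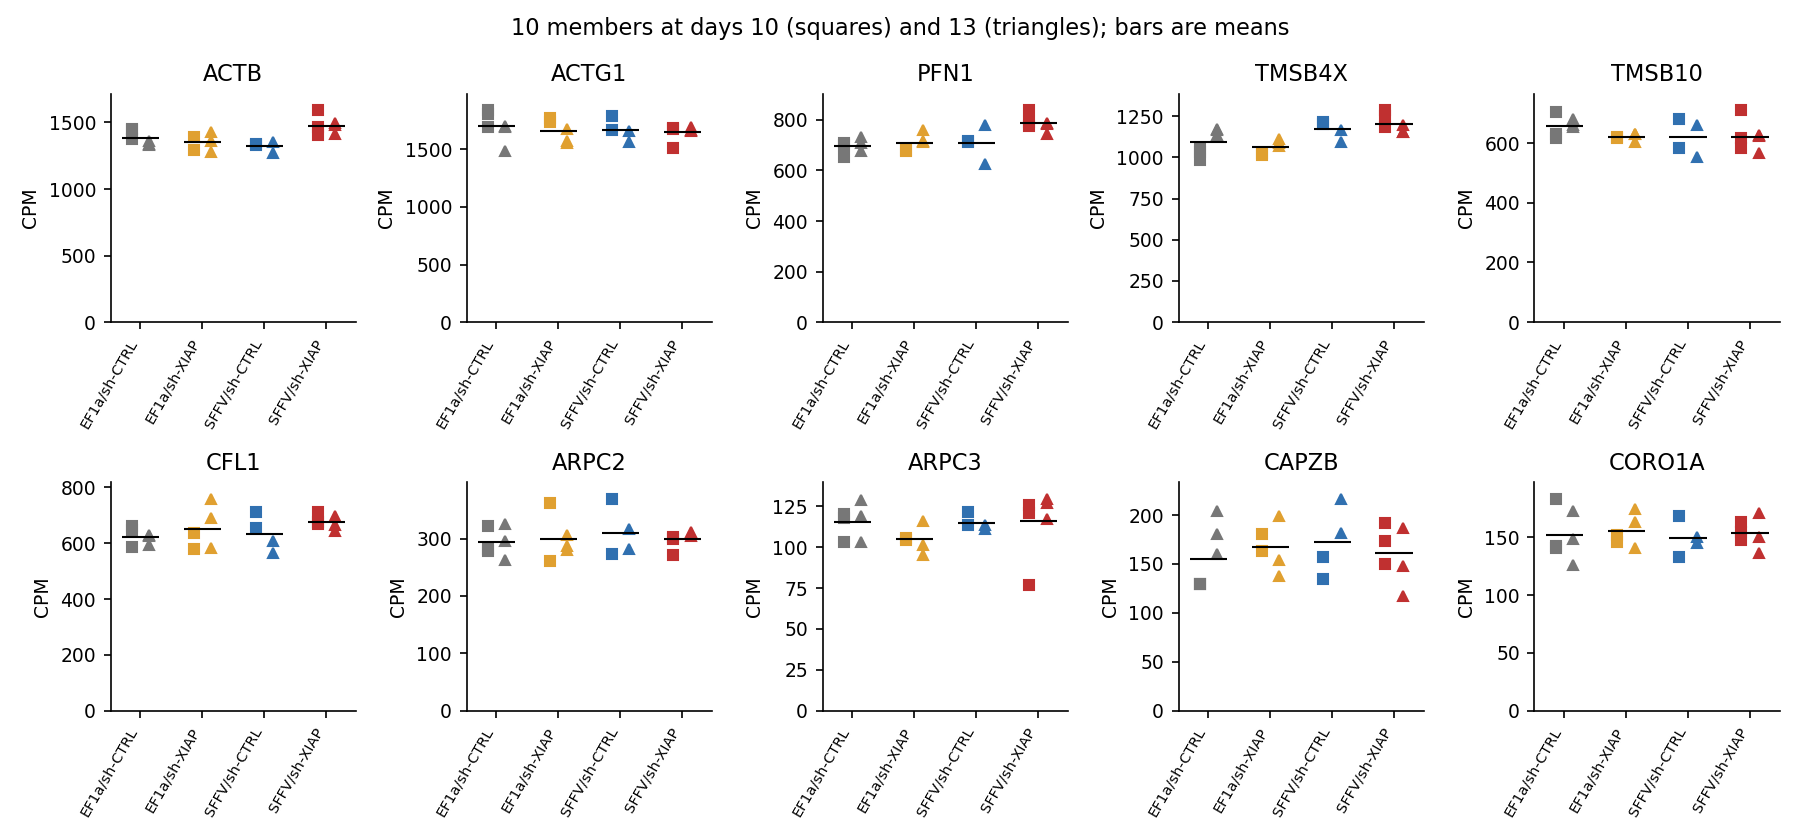
CPM (y axes, from 0) of each of the 10 members in each sample of days 10 (squares) and 13 (triangles), by construct (x axes); horizontal lines are means over both days. ACTB with SFFV/sh-XIAP sits at 1409.6 to 1591 against 1270.4 to 1355 with SFFV/sh-CTRL, and for the other 9 members these groups overlap.

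The comparison of the promoters shares the SFFV/sh-CTRL samples with the one above, so it is described only. With EF1a/sh-CTRL at days 10 and 13, ACTB ranged from 1330 to 1451 CPM (median 1367, n = 6), against 1270.4 to 1355 (median 1338, n = 4) with SFFV/sh-CTRL. On the log2 scale the SFFV controls differed from the EF1a controls by -0.051 (SE 0.036). The groups overlapped for all 10 members, and 0 of 10 were called, beside 0.00566% of genes. TMSB4X averaged 1171 ± 55.0 CPM with SFFV/sh-CTRL and 1092 ± 77.0 with EF1a/sh-CTRL, with a ratio of mean CPM of 1.18 at day 10 and 0.978 at day 13. All 4 SFFV/sh-CTRL samples had less ACTB than the EF1a/sh-CTRL median of 1367 CPM, and the SFFV/sh-XIAP samples (1409.6 to 1591) overlapped those of EF1a/sh-CTRL.

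The moderate KD asks the same question with the weaker promoter, on samples the choice of members did not use. ACTB had 1392 and 1292 CPM at day 10 and 1359.7, 1279.9 and 1432 at day 13 with EF1a/sh-XIAP, and 1446, 1451 and 1375, then 1329.9, 1359 and 1336, with EF1a/sh-CTRL. The groups overlapped, and the difference was smaller than the spread between replicates: the mean difference within days was -33.4 CPM (exact permutation test, two-sided, p = 0.385, 200 arrangements), and the fit gave a log2 fold change of 0.012 (SE 0.031, 95% interval -0.051 to 0.074; limma-voom, adjusted p = 0.996). The sign differed between CPM and the fit. No member was called (0 of 10, beside 0.017% of genes tested), and 0 had an unadjusted p under 0.05 in limma-voom, beside 818 of 17683 genes. The log2 fold changes of the members ran from -0.12 to 0.085 (median 0.0038, 0.0086 over all genes). Whether the strong and the moderate KD differ for ACTB was not tested, since the strong KD chose the gene.

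At day 4, before the days used to choose the members, no member was called. With SFFV/sh-XIAP the samples had 1408 and 1440.0 CPM of ACTB, within the 1385 to 1471 of SFFV/sh-CTRL. With EF1a/sh-XIAP they had 1459 and 1466, within the 1311 to 1480.5 of EF1a/sh-CTRL. The log2 fold change of ACTB was -0.021 (SE 0.039, 95% interval -0.099 to 0.057) for the strong and 0.066 (SE 0.034, 95% interval -0.0035 to 0.13) for the moderate KD, and 0.022 (SE 0.026, 95% interval -0.030 to 0.074) over both (limma-voom, adjusted p = 0.996, 0.976 and 0.982). Exact permutation tests over the samples, two-sided, gave p = 0.8, 0.4 and 0.43; with 2 samples against 3 the smallest possible p is 0.1. SFFV/sh-CTRL and EF1a/sh-CTRL differed in ACTB by 0.028 on the log2 scale (SE 0.033; limma-voom, adjusted p = 0.996). In none of these 4 comparisons was a member called (0 of 10 each), beside 0.0109% of 18336 genes for the strong KD, 0.0491% for the moderate KD, 0.0764% for both and 0.0164% for the promoters; these comparisons share samples. At an unadjusted p under 0.05 limma-voom had 1 member for the moderate KD and 0 in the other 3 comparisons. Over all 18336 genes it had 826 for the moderate KD, 868 for the strong KD, 912 for both and 798 for the promoters. One member each had groups without overlap: ARPC3 was at 100.2 and 109 CPM with SFFV/sh-XIAP and at 110.3 to 123 with SFFV/sh-CTRL, and PFN1 at 669 and 723 CPM with EF1a/sh-XIAP and at 724 to 775.0 with EF1a/sh-CTRL. With so few samples such a gap is common, at 19.2% and 18.7% of all genes.

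The samples of days 10 and 13 include those by which ACTB was chosen, so its levels over time are described without a test. With all 4 constructs, ACTB had 1311 to 1480.5 CPM at day 4 (median 1445, n = 10), 1292 to 1591 at day 10 (median 1401, n = 10) and 1270.4 to 1499 at day 13 (median 1359, n = 11). The days overlapped widely. Its log2 fold change was -0.019 (SE 0.024) from day 4 to day 10, -0.055 (SE 0.022) from day 4 to day 13 and -0.036 (SE 0.023) from day 10 to day 13. In the sh-CTRL constructs alone these values were -0.039 (SE 0.030), -0.084 (SE 0.031) and -0.045 (SE 0.031). No member was called between days (0 of 10 in each of the 3 comparisons), beside 0.26%, 0.515% and 0.0226% of 17676 genes. An unadjusted p under 0.05 in limma-voom was found for 0, 2 and 0 members, beside 1113, 1141 and 1057 genes. The 2 members were ACTB and ACTG1, so this count is a description too. In all of these comparisons edgeR's quasi-likelihood test and DESeq2 also called 0 members. The strong KD effect was also compared between day 13 and day 10, with no call. For ACTB the change of the log2 fold change was -0.078 (SE 0.068), a description, since these are the samples of the choice. Of the members 0 of 10 were called, beside 0% of genes. An unadjusted p under 0.05 was found for 870 of 17683 genes and for 1 member, CAPZB.

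Shares within the gene pairs do not depend on the scaling to the total of a sample. Whether the shares went with total UMIs was not tested. ACTB took between 42.6% and 48.5% of the UMIs of both actins in the 31 samples (mean 45.5% ± 1.46), and TMSB4X between 60.03% and 68.8% of those of both thymosins (mean 64.4% ± 1.91). For the moderate KD at days 10 and 13 and in the 4 comparisons at day 4, which did not use the samples of the choice, the mean share of ACTB differed by at most 0.838 percentage points in size, and exact permutation tests gave p = 0.3 to 0.8. Between days, where those samples enter, it differed by at most 0.879 percentage points, as a description. For TMSB4X the largest difference was 3.06 percentage points, between the promoters at days 10 and 13 (65.4% with SFFV/sh-CTRL, 62.4% with EF1a/sh-CTRL), which is described only. In the comparisons tested it was at most 2.30 percentage points, with EF1a/sh-XIAP at 66.1% and 66.4% and EF1a/sh-CTRL at 62.0% to 65.2% at day 4 (exact permutation test, p = 0.2, smallest possible 0.1).

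ACTB moved with the number of UMIs of a sample. Across the 31 samples its log2 CPM went with log2 total UMIs with Pearson's r = 0.70 and Spearman's rho = 0.66, a description, since it includes the difference by which ACTB was chosen. Taken as deviations from the means of construct and day, which leave that difference out, r was 0.81 and rho 0.71 (permutation tests with 100000 draws within groups, p = 0.0011 and 0.00182), and r was 0.74 without the 2 samples whose totals deviated most. The deepest SFFV/sh-XIAP sample, replicate 3 of day 10 with 1148669 UMIs, also had the highest ACTB level, and the shallowest SFFV/sh-CTRL sample, replicate 1 of day 13 with 351081 UMIs, the lowest. Both are samples of the choice, and depth did not order all of those samples. The shallowest of all, SFFV/sh-XIAP day 10 replicate 2 with 312852 UMIs, had 1409.6 CPM of ACTB. That is above the SFFV/sh-CTRL samples of days 10 and 13 (1270.4 to 1355 CPM). Within constructs, over all days, the relation had the same sign, with r = 0.60 for EF1a/sh-CTRL (n = 9), 0.75 for EF1a/sh-XIAP (n = 7), 0.86 for SFFV/sh-CTRL (n = 7) and 0.67 for SFFV/sh-XIAP (n = 8). Without the 2 samples of a construct farthest from its median total, r was 0.35 to 0.59. These values include differences between days, and those of the SFFV constructs include the samples of the choice, so they are given without a test. Of the 10 relations on deviations, CAPZB (r = -0.61, rho = -0.58; permutation p = 0.0176 and 0.00977) and ACTG1 (r = 0.59, rho = 0.51; permutation p = 0.0124 and 0.0147) also had a p under 0.05, before any adjustment. Without the 2 samples that deviated most in total, r was -0.58 for CAPZB and 0.49 for ACTG1.

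**Figure D4:**
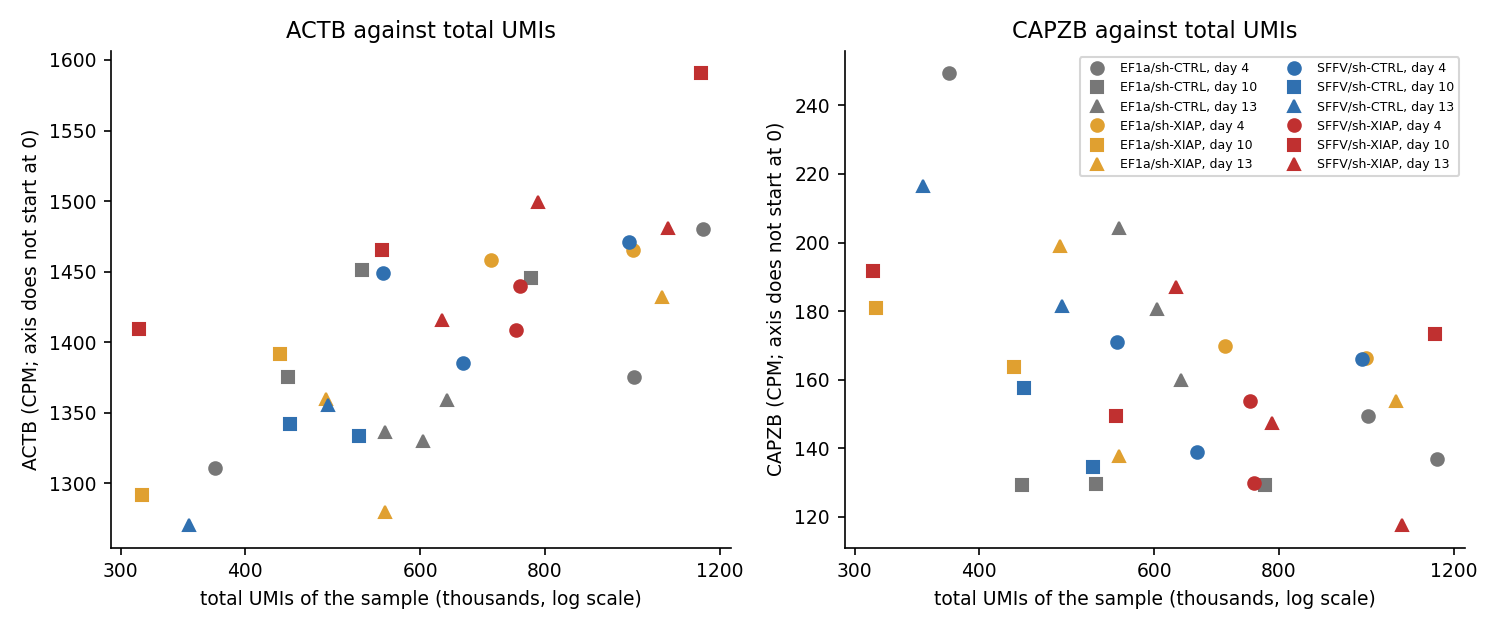
ACTB (left) and CAPZB (right) in CPM (y axes, not starting at 0) against total UMIs of the sample in units of 1000 (x axes, log scale); each point is 1 of 31 samples, with colour for the construct and circles, squares and triangles for days 4, 10 and 13. ACTB lies higher in samples with more UMIs (r = 0.70) and CAPZB lower (r = -0.47).

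A fit over all genes with the 12 groups of construct and day as terms left out the differences between groups by which the members were chosen. In it ACTB rose by 0.079 on the log2 scale for each doubling of total UMIs (SE 0.017, limma-voom, adjusted p = 0.0101), or by 5.66%. CAPZB fell by 0.27 on the log2 scale (SE 0.075, limma-voom, adjusted p = 0.123), or by 17.2%. ACTG1 had a slope of 0.056 (SE 0.021), with an adjusted p of 0.393 in limma-voom, and the other 7 slopes lay between -0.051 (TMSB10) and 0.13 (ARPC3). Thus 2 of 10 members were called, 1 in each direction, beside 1.09% of 17676 genes, of which 49 rose and 144 fell. Genes with a mean of at least 100 CPM, as all members had, were called more often: 32 rose and 58 fell of 1927. Among them, 23 rose and 13 fell of 1549 protein-coding genes, the class of all members. Of 326 pseudogenes at that level 9 rose and 44 fell. The median slope of the members was 0.0244, beside 0.0240 for those 1927 genes and 0.0270 for the 1549 protein-coding ones. Both calls depend on the method or on single samples: the edgeR quasi-likelihood test called only CAPZB (slope of ACTB 0.068), the ACTB call was lost without SFFV/sh-XIAP day 10 replicate 3 (slope 0.066), and the CAPZB call without EF1a/sh-CTRL day 4 replicate 2 (slope -0.16) or replicate 3 (slope -0.24).

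With log2 total UMIs as a covariate, the log2 fold change of ACTB for the strong KD at days 10 and 13 went from 0.17 to 0.089 (SE 0.031), a level 6.38% higher. That of CAPZB went from -0.16 to 0.036 (SE 0.15), while that of PFN1 was 0.13 without and 0.13 with the covariate (SE 0.056). The numbers of positive and negative values became 5 and 5. When every sample was thinned to the total of the shallowest, the log2 fold change of ACTB was 0.15. Thinning draws UMIs at random and keeps the expected share of each gene in its sample, so it cannot take out a relation of level to depth. The SFFV/sh-XIAP samples of these days had a median of 708866.5 total UMIs and the SFFV/sh-CTRL samples 464457, and depth and construct can be told apart only as far as their totals overlap; how depth could bear on the level of a gene was not tested.

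**Figure D5:**
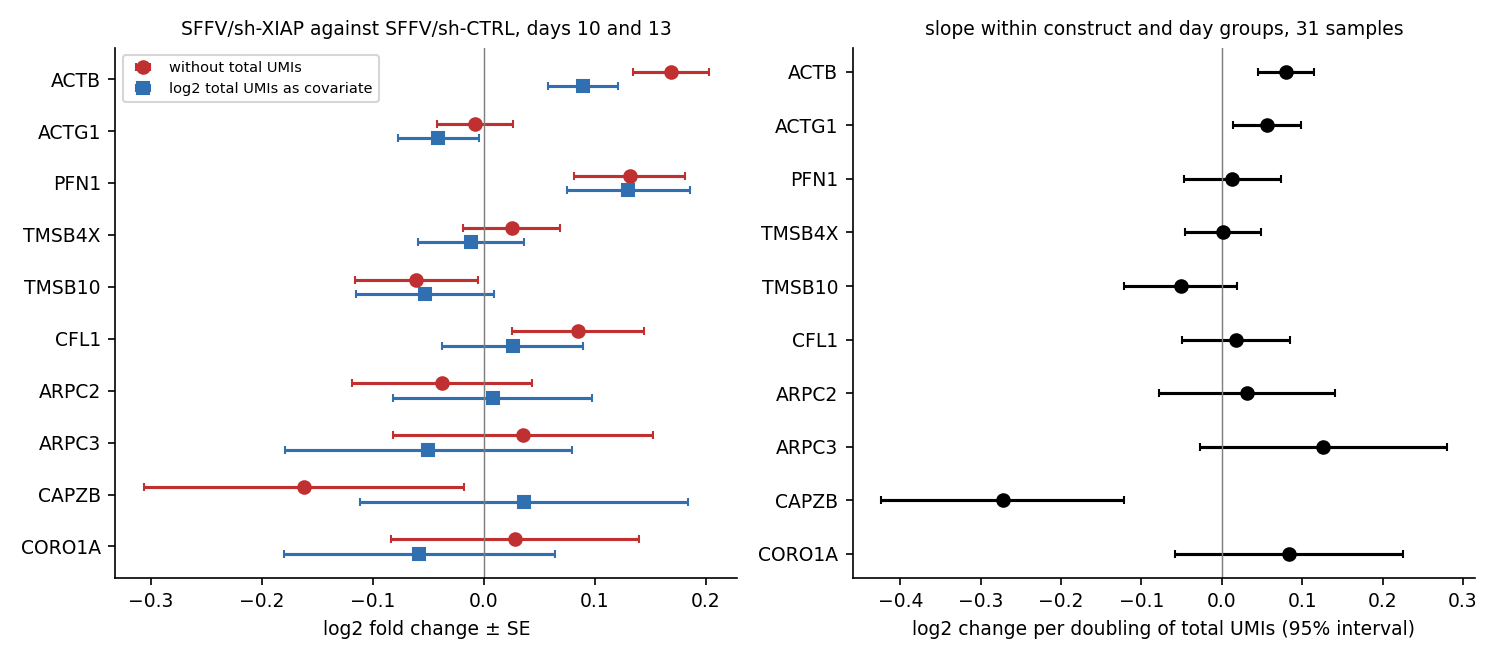
Left, log2 fold change ± SE (x axis) of each member (y axis) for the strong KD at days 10 and 13, without total UMIs (circles) and with log2 total UMIs as a covariate (squares). Right, log2 change per doubling of total UMIs with its 95% interval, within the groups of construct and day; the value for ACTB is 0.079 and that for CAPZB -0.27.

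The genes most like ACTB were found by the correlation of log2 CPM deviations from the means of construct and day over 31 samples, among 1926 genes with a mean of at least 100 CPM. They were SEC62, of protein import into the endoplasmic reticulum (r = 0.82), COLGALT1, which glycosylates collagen (r = 0.74), the ribosomal protein genes RPL14 (r = 0.72) and RPL35 (r = 0.71), and HLA-B, an antigen-presenting class I molecule (r = 0.71). All points share their libraries, and the deviations of these genes also went with log2 total UMIs, with r between 0.43 (RPL14) and 0.78 (HLA-B), beside 0.81 for ACTB. Among the members ACTG1 was nearest to ACTB, at rank 52 (r = 0.58), followed by ARPC3 at rank 113 (r = 0.52), and CAPZB was the most unlike at rank 1835 (r = -0.37). The 45 pairs of members had a median r of 0.019, from -0.56 (TMSB10 and ARPC3) to 0.69 (ACTG1 and ARPC3).

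Of 111 further actin genes listed by role, 99 passed the filter on low counts in the fits of days 10 and 13. None was called for the strong KD, the promoters or the moderate KD (0 of 99 each), and 0 of 98 were called in each comparison at day 4. Between 3 and 7 of them had an unadjusted p under 0.05 in limma-voom in each of these comparisons. Over all genes tested, 17683 at days 10 and 13 and 18336 at day 4, that number was between 798 and 988. With the strong KD 63 of these 99 had a positive log2 fold change, beside 47.3% of all genes, with a median of 0.069 beside -0.018. Between the promoters, a comparison that shares the SFFV/sh-CTRL samples, 39 did, beside 52.5% of all genes, with a median of -0.029 beside 0.016. With the moderate KD 52 did, beside 51.4%, with a median of 0.0032 beside 0.0086. The values for the strong KD come from the comparison that chose the members and are a description. They do not allow for total UMIs, with medians of 708866.5 for SFFV/sh-XIAP and 464457 for SFFV/sh-CTRL. Whether they hold with total UMIs as a covariate was not tested. LCP1, the leukocyte fimbrin that bundles filaments, was lower at day 13 (357 ± 21.4 CPM, n = 11) than at day 4 (397 ± 29.8, n = 10), by a log2 fold change of -0.16 (SE 0.041, limma-voom, adjusted p = 0.132). TMSB15A, a thymosin, was called higher at day 10 than at day 4 (log2 fold change 1.503, SE 0.41, limma-voom, adjusted p = 0.231), from 7 UMIs in 10 samples to 16 UMIs in 10. Leaving out single samples ended the LCP1 call in 4 cases, without EF1a/sh-XIAP day 4 replicate 1 (log2 fold change -0.13), EF1a/sh-XIAP day 4 replicate 2 (-0.15), SFFV/sh-XIAP day 4 replicate 1 (-0.15) or EF1a/sh-XIAP day 13 replicate 3 (-0.14), and ended the TMSB15A call in 17 of 31 cases. The LCP1 call was also lost in thinned counts (-0.097), in the sh-CTRL constructs alone (-0.098), with protein-coding genes only (-0.14) and with the replicate block and total UMIs together (-0.14). The TMSB15A call was also lost with edgeR's quasi-likelihood test (adjusted p = 0.596), DESeq2, total UMIs as a covariate (0.574), thinned counts (log2 fold change 0.95, adjusted p = 0.848), the replicate block (0.273, and 0.609 with total UMIs), the culture as a random block (just over the threshold) and the sh-CTRL constructs alone (0.762). No other of these genes was called between days, 99 being tested. Between days 10 and 4, 11 of the 99 had an unadjusted p under 0.05 in limma-voom, beside 1113 of 17676 genes tested. That number was 8 beside 1141 genes between days 13 and 4, and 6 beside 1057 between days 13 and 10.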

How the data were processed

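RNA of NALM-6 cells was sequenced by prime-seq, a bulk protocol that reads 3′ ends. The deposited file is a matrix of UMI counts by Ensembl gene identifier and sample, unnormalized whole numbers made by the authors; the submitters' processing notes name STAR 2.6.0a and the builds hg38, GRCh38, mm10 and GRCm38, while the annotation is not given in the sources used here. Per the study's methods, samples outlying in a principal component analysis were left out; whether any of them is among the 31 samples used here is not given in the sources used here. All 31 were used, grouped by construct and day from their labels, with replicate numbers from their titles. Of the identifiers, 30659 were named and 29928 were in GENCODE 29, from which coordinates and coding sequences were taken.

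A gene entered a fit if over 1 CPM in 1 of 3 or more of its samples. Counts were normalized by TMM (edgeR 4.0.16) and tested with limma-voom (limma 3.58.1, R 4.3.3), with Benjamini-Hochberg adjustment over all genes and the study's threshold, an adjusted p of at most 0.25. Days 10 and 13 (21 samples), day 4 (10 samples) and all 31 samples were fitted apart. Single values were compared by exact permutation within day or construct (SciPy 1.17.1). Log2 CPM for correlations used a prior count of 2. Totals of 312852 to 1153668 UMIs set the precision, and counting spread covers counting error only.

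The members and lists were chosen with earlier results of these data known. All members are named; fold changes and tests are given for ACTB and for members past the threshold, with levels and fold changes of others as description in the comparison that chose them; of the other listed actin genes, up to 3 per direction past the threshold are named; and the 5 genes most like ACTB. Alternatives were edgeR's quasi-likelihood test, DESeq2 1.42.0, other scalings and filters, total UMIs as a covariate, thinned counts, blocks, pseudogene UMIs added, a threshold of 0.05 and each sample left out; protein-coding genes only, the block with total UMIs and the slopes on total UMIs were added after the data were seen. The procedure was tested on simulated counts.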

Additional observations from a re-analysis of the deposited data

Results flagged for a closer look

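In groups of 4 to 6 samples of 1 construct at days 10 and 13, 48 sets of values were examined for a sample far from the others, and 4 were found; chance gives about 1 in 20. Of these, 3 were the same library, SFFV/sh-XIAP day 10 replicate 2, the shallowest of all with 312852 UMIs: ACTG1 was 1509 CPM there against 1657 to 1694 in the other 5 samples, ARPC2 was 272 CPM against 299 to 311, and ARPC3, at 24 UMIs, was 76.7 CPM against 117 to 129.6. The fourth was the share of ACTB in the UMIs of both actins in EF1a/sh-CTRL day 13 replicate 3, at 47.3% against 44.0% to 44.8% in the other 5 samples. Whether depth had a part in these values was not tested.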

How the results depend on the processing

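The call of ACTB with the strong KD at days 10 and 13, which chose the members, went from 1 member of 14 genes called to 0 members under edgeR's quasi-likelihood test (49 genes called), log2 total UMIs as a covariate (3 genes), the replicate block (7 genes), the replicate block with log2 total UMIs (3 genes), day 13 alone (19 genes) and an adjusted p of at most 0.05 (2 genes), and under DESeq2 and thinned counts, which called 0 genes (419 and 871 at an unadjusted p under 0.05; limma-voom was used on the thinned counts). The cause was not tested. With no filter on low counts 1 member, ARPC2, was called between days 10 and 4, in a fit that called 8868 genes, and in the sh-CTRL constructs alone 1 member, CAPZB, between days 13 and 10, in a fit that called 11 genes. The slope on total UMIs called 1 member by edgeR in place of 2, and 1 to 2 with samples left out. An unadjusted permutation p under 0.05 for the relation to total UMIs was found for 3 members over all samples. With samples left out it was 3 to 5, the 5 without SFFV/sh-XIAP day 10 replicate 2. Both counts take in the difference by which ACTB was chosen and are a description. On deviations from the means of construct and day it was 3 members. In the slope fit 3 of 10 members had an unadjusted p under 0.05 in limma-voom, beside 1442 of 17676 genes and 264 of the 1927 genes with a mean of at least 100 CPM.

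Signs near 0 turned. The ACTB log2 fold change of the moderate KD at days 10 and 13 was -0.025 (edgeR), -0.013 (DESeq2), -0.0021 (covariate), -0.048 (thinned), -0.0027 (replicate block), -0.0074 (replicate block and covariate) and -0.084 (day 10 alone), and -0.054 to 0.019 with samples left out. From day 4 to day 10 it was 0.00079 (no TMM), 0.0048 (DESeq2 size factors), 0.040 (no filter), 0.022 (covariate) and 0.021 (replicate block and covariate), and -0.053 to 0.0020 with samples left out. With samples left out it was also -0.093 to 0.017 for the change of the strong KD, -0.036 to 0.0048 for the strong KD at day 4 and -0.052 to 0.0060 from day 10 to day 13. In thinned counts the ACTB share differed by -1.83 (moderate KD, day 4), -0.807 (both KD, day 4) and 0.258 (day 13 against 4) percentage points, and the TMSB4X share by -0.262, -0.667, 0.533 (day 10 against 4) and -0.920 (day 13 against 10).

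With samples left out the difference of the ACTB share was -0.608 to 0.2503 (moderate KD, days 10 and 13), -0.195 to 0.314 (moderate KD, day 4) and -0.414 to 0.369 (day 13 against 4), that of the TMSB4X share -0.106 to 1.53 (promoters, day 4), and that of ACTB in CPM -36.0 to 7.02 (strong KD, day 4) and -68.9 to -46.8 (day 13 against 4). Replicate numbers did not pair the samples (mean correlation of residuals 0.0018 over 40 pairs of the same number, -0.00087 over 79 others), and the replicate block changed no other count of members called.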
